A study of Mus musculus with 8 samples.

Results

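The fibroblast growth factor (FGF), Sprouty, neuregulin and ErbB genes are the ligands, receptors and feedback inhibitors of a pair of receptor tyrosine kinase systems. Members were found by gene symbol, and 37 of the 15705 genes listed belong to them. They comprise 9 secreted FGF genes, 2 endocrine FGF genes, 4 intracellular FGF genes, 5 FGF receptor genes, 7 Sprouty or Spred genes, 3 ligand genes of the EGF type, 3 neuregulin genes and 4 ErbB receptor genes. Another 8 mouse genes with matching symbols (Fgf4, Fgf5, Fgf6, Fgf16, Fgf20, Fgf21, Fgf22 and Nrg4) were not analysed here.

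Poly(A) RNA was taken at E18.5 from mouse embryos, from the dissected lateral ganglionic eminence (LGE) in which striatal projection neurons are born. The 4 libraries labelled control were Isl1 flx/flx, and the 4 labelled conditional knockout (cKO) were Dlx1-Cre; Isl1 flx/flx, so both groups carried 2 floxed alleles of this LIM-homeodomain factor gene. Embryos of both kinds came from crosses of Dlx1-cre; Isl1flx/+ with Isl1 flx/flx mice, and the labels describe the groups as littermates. Deletion is limited to cells with a history of Dlx1-driven Cre, and because the controls had no Cre, its presence and the deletion cannot be told apart. Isl1 itself was higher in the libraries labelled cKO (5474 ± 437 against 3793 ± 283, SD, n = 4, adjusted read value). The groups did not overlap, and by the limma test it rose (log2 fold change 0.53 ± 0.06, SE, adjusted p = 0.000338). The floxed exons are not named in the labels. The whole-gene value of Isl1 thus cannot test the genotype, and every direction below rests on the labels. All 22 markers of the LGE and of striatal projection neurons were above 0 in every library. Of these, 7 rose and 4 fell, against 2.87% and 3.78% of all genes tested. Those that fell were Ikzf1 (mean 3537 in the controls and 99 in the cKO), Tac1 (2015 and 268), Ppp1r1b (2000 and 1209) and Rarb (4110 and 3130). Dlx1, Dlx2, Dlx5, Dlx6, Meis2, Drd2 and Adora2a rose. The summed RPKM, 1319 to 1382 in the controls and 1394 to 1418 in the cKO, does not show these separate changes.

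The unit is an adjusted read value per gene, which the authors scaled and rounded. Its sum ran from 23732455 to 24456923 per library, but the sequencing depth is unknown. Fold changes are differences of log2(value + 1) between the cKO and control means with the standard error (SE) of the limma fit. A gene is said to have risen or fallen when its limma p, adjusted by Benjamini-Hochberg over 15698 genes, was under 0.05. The authors' adjustment removed part of the spread between replicates, so SDs, SEs and p-values are too small, and an adjusted p under 0.05 does not hold the share of false calls to that level. With 1 residual degree of freedom fewer, which makes up for part of this, Tgfa (adjusted p = 0.00037), Fgf9 (0.00929), Fgfr2 (0.00642) and Fgf14 (0.0306) still passed and Spred3 (0.0843) did not. Libraries are separate embryos per the labels. Levels of different genes are compared only as RPKM, which divides by gene length.

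Secreted FGFs bind FGF receptors together with heparan sulfate on the cell surface and drive the RAS-ERK cascade, and Sprouty and Spred proteins, themselves induced by the signal, damp it. The intracellular FGFs are not secreted and bind the cytoplasmic tails of voltage-gated sodium channels. Ligands of the EGF type bind EGFR, while neuregulins bind ERBB3 and ERBB4, with ERBB2 as the shared partner. In the embryonic forebrain FGF8 and its relatives pattern the rostral telencephalon, TGFA is a ligand made in the striatal region, and the ErbB4 receptor is carried by migrating interneurons.

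In the cKO, 2 of the 37 members fell, Tgfa and Fgf9, and 3 rose, Fgfr2, Fgf14 and Spred3. Over all genes tested, 6.66% passed (3.78% fell and 2.87% rose), and among the members 5 of 37 passed, or 13.5%. The members were not chosen at random and this share was not tested. The authors' deposited table called 6.55% of all genes and 6 members: Tgfa, Fgf9, Fgf8 and Fgf15 were lower in the cKO there, and Fgfr2 and Fgf14 higher. At an unadjusted p under 0.05 in the limma test there were 11 of the 37 members and 2931 of the 15698 genes tested. The median log2 fold change of the members was -0.02, against 0.01 over all genes tested. The values of the groups did not overlap in 7 members, the 5 just named with Fgf13 and Hbegf. Of these, 3 were lower in the cKO and 4 higher. Such genes made up 12.7% of all genes tested, 6.33% lower and 6.37% higher. All 37 members passed the filter on low values, but 11 of them were under 50 in every library.

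To let a reader compare the sequence at the 5 members that passed, the 250 bases before 1 start site of each were searched, as the RefSeq promoter table gives that site (GRCm38.p6, the assembly that mm10 denotes). Only the Fgfr2 window lies wholly before its gene. The windows of Fgf9, Spred3 and Fgf14 lie inside the RefSeq span of their gene, at a start used by some of its transcripts, and the Spred3 window also lies inside Ggn. Of the Tgfa window, 184 bases lie inside the span, and the 66 before it are shown. The Fgf14 window lies within an annotated exon and is not shown. Each is written 5′ to 3′ on the strand of its gene. Capitals mark TAATG or its reverse complement CATTA, a core bound by homeodomain proteins.

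Tgfa, chr6:86194972-86195037, plus strand: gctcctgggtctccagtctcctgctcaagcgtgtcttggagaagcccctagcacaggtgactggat
Fgf9, chr14:58072436-58072685, plus strand: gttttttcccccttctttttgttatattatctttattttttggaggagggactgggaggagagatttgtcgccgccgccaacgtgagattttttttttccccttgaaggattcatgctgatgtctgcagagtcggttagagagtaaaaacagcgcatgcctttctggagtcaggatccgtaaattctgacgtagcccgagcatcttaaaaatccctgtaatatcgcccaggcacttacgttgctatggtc
Fgfr2, chr7:130266809-130267058, minus strand: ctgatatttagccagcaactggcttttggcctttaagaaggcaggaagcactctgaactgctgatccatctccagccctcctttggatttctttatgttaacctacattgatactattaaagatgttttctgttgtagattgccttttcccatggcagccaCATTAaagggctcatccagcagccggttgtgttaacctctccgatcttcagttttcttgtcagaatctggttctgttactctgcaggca
Spred3, chr7:29168648-29168897, minus strand: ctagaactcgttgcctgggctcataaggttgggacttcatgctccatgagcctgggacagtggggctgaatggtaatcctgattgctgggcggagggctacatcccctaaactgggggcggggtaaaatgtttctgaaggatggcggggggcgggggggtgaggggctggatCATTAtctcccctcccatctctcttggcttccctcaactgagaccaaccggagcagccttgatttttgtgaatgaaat

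Of the 5 windows, 2 held TAATG, once each when both strands were searched: those of Fgfr2 and Spred3. The windows of Fgf14, which also rose, and of Tgfa and Fgf9 held none. The motif was in 23.9% of 32851 promoter windows of the same length, and in 7 of the 34 windows of the 26 members that matched the table by symbol. None of the 5 held CCGGAA or its reverse complement TTCCGG, a core of ETS factors, which act below ERK. That motif was in 12% of all windows and in 6 of the 34. The windows differ in base composition, with a GC content of 69.2% at Tgfa, 44.8% at Fgf9, 44% at Fgfr2, 55.6% at Spred3 and 64% at Fgf14, against a median of 52.4%. A match is a description of letters and not of binding.

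Tgfa encodes transforming growth factor alpha, a membrane-anchored ligand of EGFR. It lies on chromosome 6 (86195038 to 86275744, plus strand). The control libraries held Tgfa values of 4228, 3620, 3821 and 4355, and the cKO libraries held 2683, 2297, 2571 and 1989. Every cKO library was below every control library. The Tgfa mean went from 4006 ± 344 to 2385 ± 310 (SD, n = 4), 1.68-fold higher in the controls. The log2 fold change was -0.75 ± 0.09 (SE, adjusted p = 0.000276), and the gene passed under all 19 alternatives, with a log2 fold change between -0.81 and -0.67. Neither of its nearest tested neighbours passed: Add2 had an adjusted p of 0.144 and Fam136a of 0.517.

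At 36.5 ± 3.5 RPKM in the controls, Tgfa was the second most abundant member after the intracellular Fgf13 (44.5 ± 0.75 RPKM). In the cKO it was at 21.6 ± 2.9 RPKM and still second. Of the summed RPKM of the 3 ligands of the EGF type, Tgfa made up 85.1% to 88.1% in the controls and 75.2% to 80.4% in the cKO. The sum itself ran from 38.3 to 45.4 RPKM in the controls and from 23.8 to 30.6 in the cKO, with no overlap.

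The other members of this type, Hbegf and Egf, did not fall, and Areg, an EGFR ligand outside the members, is given below. Hbegf, heparin-binding EGF-like growth factor, was at 266, 286, 285 and 281 in the controls and at 307, 347, 374 and 298 in the cKO. The groups did not overlap, with cKO the higher, but the log2 fold change of 0.24 ± 0.08 did not pass (adjusted p = 0.118, and between 0.0851 and 0.257 under the alternatives). Egf, the founding ligand, was low in both groups (76 ± 10.4 and 82.8 ± 10.2, SD, n = 4), at 0.12 ± 0.14 on the log2 scale.

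**Figure D1:**
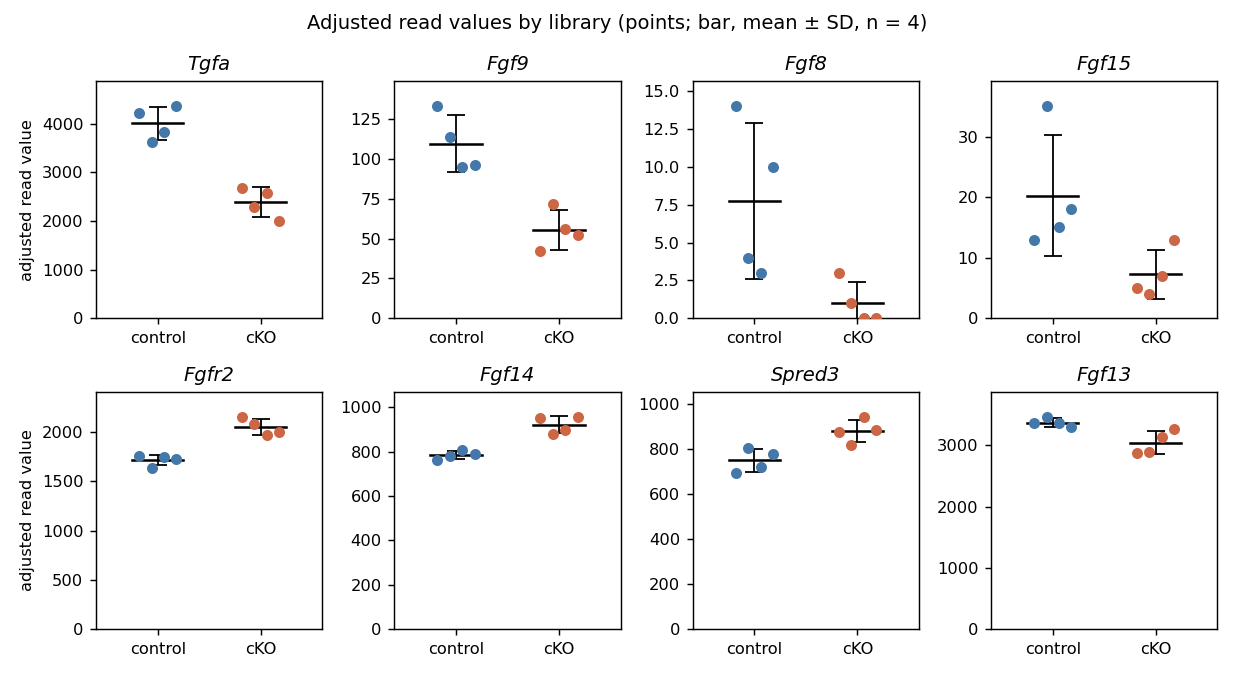
Adjusted read value (y axis, linear from 0) in each library of the 4 control and 4 cKO embryos for 8 members; points are libraries and bars are mean ± SD (n = 4), with the lower bar for Fgf8 in the cKO running below the axis. Tgfa and Fgf9 are lower in every cKO library than in any control, Fgfr2, Fgf14 and Spred3 are higher, and Fgf8 and Fgf15 are low with overlapping groups.

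None of the 4 ErbB receptor genes passed the limma test, and 0 had an unadjusted p under 0.05. Erbb4 was the most abundant at 11 ± 0.23 RPKM in the controls, followed by Egfr at 4.04 ± 0.16 and Erbb2 at 2.35 ± 0.27, levels whose spreads did not overlap. Erbb3 was near the floor of the table at 0.101 ± 0.026 RPKM. Egfr, the receptor of TGFA, went from 628 ± 27.2 to 676 ± 26.2 (SD, n = 4). Its log2 fold change was 0.11 with a 95% interval from -0.01 to 0.22 (adjusted p = 0.299). Erbb4 was at 0.05 with an interval from -0.04 to 0.15, and Erbb2 at 0.07 with an interval from -0.13 to 0.27. For Egfr, Erbb4 and Erbb2 the intervals exclude a fall of the size seen in Tgfa. Erbb3, from values between 5 and 16, had an interval from -1.06 to 0.50 and does not allow that statement.

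The 3 neuregulin genes, whose products are the ligands of ERBB3 and ERBB4, also did not pass, and 0 of them had an unadjusted p under 0.05. Nrg1 was the most abundant at 3.98 ± 0.74 RPKM in the controls, with values from 160 to 245 in the controls and from 169 to 229 in the cKO. Its log2 fold change was -0.07 ± 0.13. Nrg2 and Nrg3 were near 1.07 RPKM each and did not differ beyond their spread, with log2 fold changes of 0.14 ± 0.16 and -0.04 ± 0.17. The groups overlapped for all 3.

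Fgf9, a secreted FGF made by neurons, lies on chromosome 14 (58070671 to 58112854, plus strand) and was the secreted FGF that passed. Fgf9 values were 133, 114, 95 and 96 in the controls and 42, 72, 56 and 52 in the cKO. All cKO libraries were below all controls. The mean dropped from 109.5 ± 17.9 to 55.5 ± 12.5 (SD, n = 4), 1.97-fold higher in the controls, with a log2 fold change of -0.98 ± 0.17 (SE, adjusted p = 0.00477). The call held under all 19 alternatives, with adjusted p up to 0.0321. The nearest tested genes, Micu2 (adjusted p = 0.645) and Rcbtb1 (0.756), did not pass.

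Fgf8, the classical patterning signal of the rostral forebrain, and Fgf15, the mouse counterpart of the endocrine FGF19 that is also made in the embryonic brain, were lower at values close to the floor. Fgf8 was at 14, 4, 3 and 10 in the controls and at 3, 1, 0 and 0 in the cKO. One control and one cKO library were both at 3, so the groups overlapped, and the log2 fold change of -2.17 ± 0.59 missed the threshold at an adjusted p of 0.05001. Fgf8 passed with the replicate block (adjusted p = 0.0248), without control replicate 3 (0.0456) and without cKO replicate 1 (0.0190). In the authors' deposited table it had a log2 fold change of -3.13 and an adjusted p of 4.76e-05. The highest adjusted p over the alternatives was 0.167. Fgf8 is therefore reported as low and uncertain.

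Fgf15 was at 13, 35, 15 and 18 in the controls and at 5, 4, 7 and 13 in the cKO. The highest cKO value equalled the lowest control. The log2 fold change was -1.38 ± 0.38, with an adjusted p of 0.0566 that fell under the threshold without cKO replicate 4 (0.0249) and without both libraries lowest in pallial markers (0.0438), and in the authors' deposited table (0.00137). Fgf15 (chromosome 7, 144896532 to 144900953) sits between Fgf3 and the cyclin gene Ccnd1. Fgf3 (-0.14 ± 0.15) and Ccnd1 (0.08 ± 0.08 on the log2 scale) did not pass, and they are not necessarily the genes nearest to Fgf15.

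Fgf3 was the most abundant secreted FGF at 3.2 ± 0.54 RPKM in the controls, ahead of Fgf9 at 1.1 ± 0.19. It made up 35.3% to 50.5% of the summed RPKM of the 11 secreted and endocrine FGF genes in the controls and 44.7% to 54.5% in the cKO. That sum ran from 6.9 to 7.73 RPKM in the controls and from 4.71 to 6.26 in the cKO. It was below the sum of the 4 intracellular FGFs in every library, 68.9 RPKM at the least. Of the remaining secreted FGFs, Fgf18 was at 31.8 ± 2.5 and 32 ± 9.06, and Fgf1, Fgf2, Fgf7, Fgf10 and Fgf17 were under 30 in every library. Their intervals are wide, for Fgf2 from -1.68 to 0.56 and for Fgf7 from -1.25 to 0.70 on the log2 scale. Fgf1 and Fgf2 overlap genes on the opposite strand, Arhgap26 and Nudt6, and the labels do not say whether the counting used strand, so their values are uncertain. The endocrine Fgf23 was at 9.75 ± 1.71 and 6 ± 2.94 and did not pass.

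**Figure D2:**
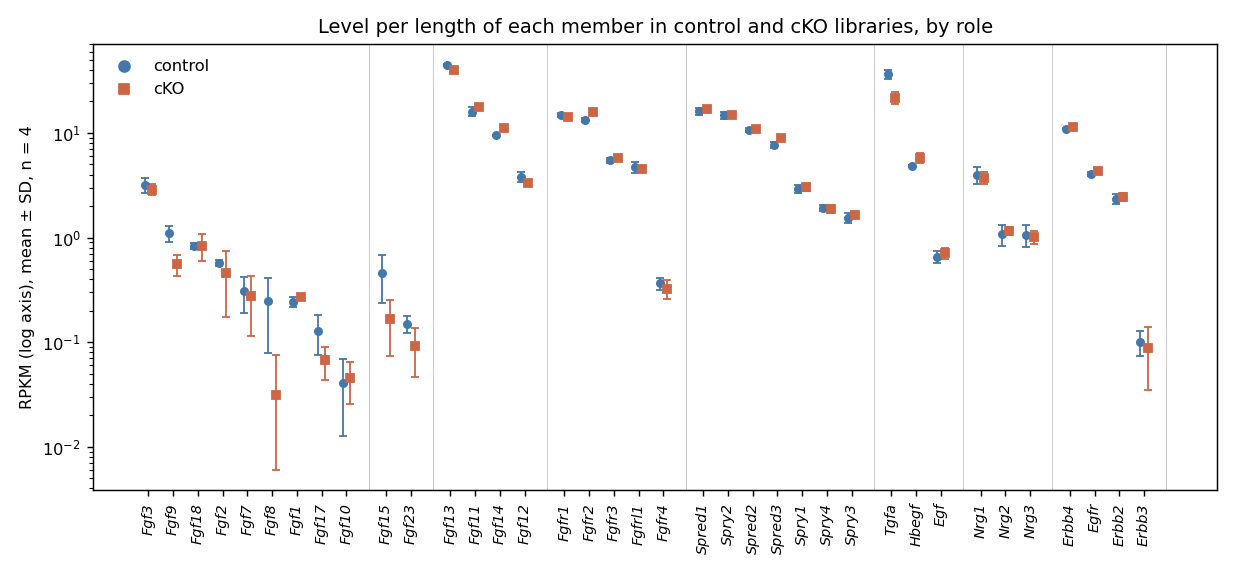
RPKM of each member (y axis, log scale) in control (circles) and cKO (squares) libraries, ordered by role and by control level within a role; symbols are means and bars SD (n = 4). Fgf13 and Tgfa lead, most secreted FGFs lie under 1 RPKM, and the lower bar for Fgf8 in the cKO, where the SD exceeds the mean and the bar would pass 0, is cut off.

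The intracellular FGFs did not move together. Fgf14 (chromosome 14, 123974441 to 124677686, minus strand) rose, from 762, 780, 808 and 791 in the controls to 953, 879, 899 and 955 in the cKO. All 4 cKO values were above all controls. The Fgf14 mean went from 785 ± 19.3 to 921.5 ± 38.4, 1.17-fold, with a log2 fold change of 0.23 ± 0.05 (SE, adjusted p = 0.01). The call was lost without both libraries lowest in pallial markers, control replicate 3 and cKO replicate 4 (adjusted p = 0.0604). The gene overlaps Itgbl1 on the opposite strand over 4425 bases, and Itgbl1 did not pass (adjusted p = 0.417).

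Fgf13, the most abundant of all members, was at 3368, 3463, 3368 and 3302 in the controls and at 2878, 2894, 3144 and 3273 in the cKO. The groups did not overlap, with the cKO lower, but the log2 fold change of -0.15 ± 0.05 did not pass (adjusted p = 0.0802). Without cKO replicate 4, the highest of its group, it passed at -0.18 (adjusted p = 0.0384). Fgf11 was at 0.16 ± 0.06 (adjusted p = 0.177) and Fgf12 at -0.18 ± 0.08 (adjusted p = 0.227), both with overlapping groups. As a share of the summed RPKM of the 4, Fgf14 took 12.3% to 13.5% in the controls and 14.7% to 16.2% in the cKO.

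Of the 5 FGF receptor genes only Fgfr2 passed. Fgfr2 (chromosome 7, 130162451 to 130266808, minus strand) encodes a receptor of secreted FGFs that is prominent in forebrain radial progenitors and glia. It was at 1753, 1640, 1747 and 1724 in the controls and at 2153, 2087, 1973 and 2006 in the cKO. Every cKO library was above every control. The Fgfr2 mean rose from 1716 ± 52.2 to 2055 ± 81.1 (SD, n = 4), 1.20-fold, with a log2 fold change of 0.26 ± 0.04 (SE, adjusted p = 0.00217). It passed under all 19 alternatives, with adjusted p up to 0.0181, and its nearest tested neighbours Wdr11 (0.412) and Ate1 (0.162) did not.

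Fgfr1, the other abundant receptor, was at 1874, 1739, 1743 and 1824 in the controls and at 1822, 1774, 1712 and 1673 in the cKO. These groups overlapped, and the log2 fold change was -0.04 with a 95% interval from -0.13 to 0.05. Per length, the order of these receptors differed between the groups. Fgfr2 was below Fgfr1 in all 4 controls, at 0.879 to 0.942 of its RPKM, and above it in all 4 cKO libraries, at 1.08 to 1.13. Fgfr2 made up 38.4% to 40.5% of the summed RPKM of Fgfr1 to Fgfr4 in the controls and 43.4% to 44.4% in the cKO.

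The other receptors did not pass. Fgfr3, a receptor of astroglial and radial cells, was at 579.5 ± 28.8 and 609 ± 25.7 (log2 fold change 0.07 ± 0.06). Fgfrl1, a receptor without a kinase domain, was at 301 ± 30.6 and 290 ± 17.6 (-0.05 ± 0.08). Fgfr4 was low at 27.8 ± 4.11 and 24.8 ± 5.12 (-0.17 ± 0.20).

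**Figure D3:**
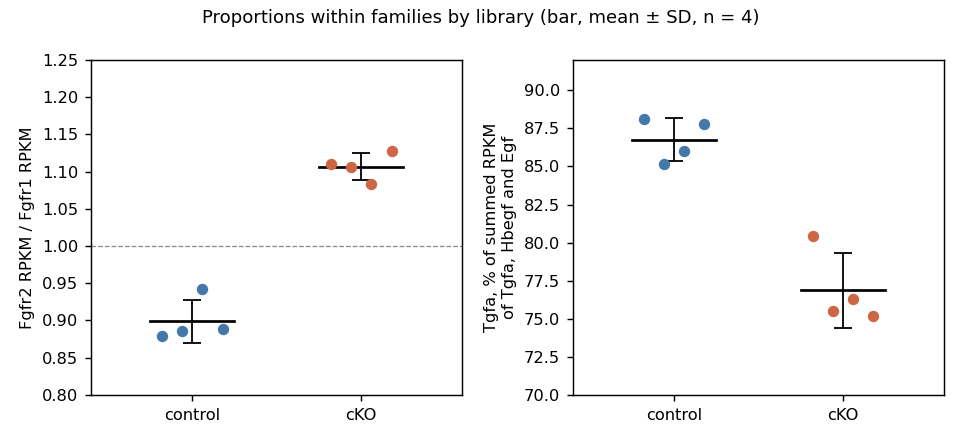
Left, the ratio of Fgfr2 to Fgfr1 RPKM in each library, with equality as a dashed line; right, the percent that Tgfa takes of the summed RPKM of Tgfa, Hbegf and Egf (axes do not start at 0; points are libraries, bars mean ± SD, n = 4). The ratio lies under 1 in all controls and over 1 in all cKO libraries, and the Tgfa share lies between 85.1% and 88.1% in the controls and at 80.4% or less in the cKO.

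Of the 7 Sprouty and Spred genes, which encode inhibitors of the RAS-ERK cascade, Spred3 passed. Spred3 (chromosome 7, 29157783 to 29170070, minus strand) was at 692, 806, 720 and 780 in the controls and at 877, 818, 942 and 886 in the cKO. The groups did not overlap, though the highest control and the lowest cKO library were close. The log2 fold change was 0.23 ± 0.06 (SE, adjusted p = 0.0441), and the call was lost under 10 of the 19 alternatives, with adjusted p up to 0.218 (6 fits that left out 1 library, namely control replicate 1, 3 or 4 or cKO replicate 1, 3 or 4, among them). Spred3 overlaps Ggn on the opposite strand over 1680 bases, and Ggn did not pass (adjusted p = 0.876).

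The Sprouty genes, widely used as readouts of FGF signalling, did not pass. Spry2 was at 815, 692, 739 and 738 in the controls and at 792, 772, 681 and 739 in the cKO. Both means were 746, and the 95% interval of the log2 fold change ran from -0.14 to 0.14. Spry1 (0.06 ± 0.09), Spry3 (0.12 ± 0.09) and Spry4 (-0.02 ± 0.09) had intervals within -0.21 to 0.32. Spred1, the most abundant at 16.1 ± 1.4 RPKM in the controls, was at 0.07 ± 0.06 and Spred2 at 0.05 ± 0.05. Groups overlapped in all 6.

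**Figure D4:**
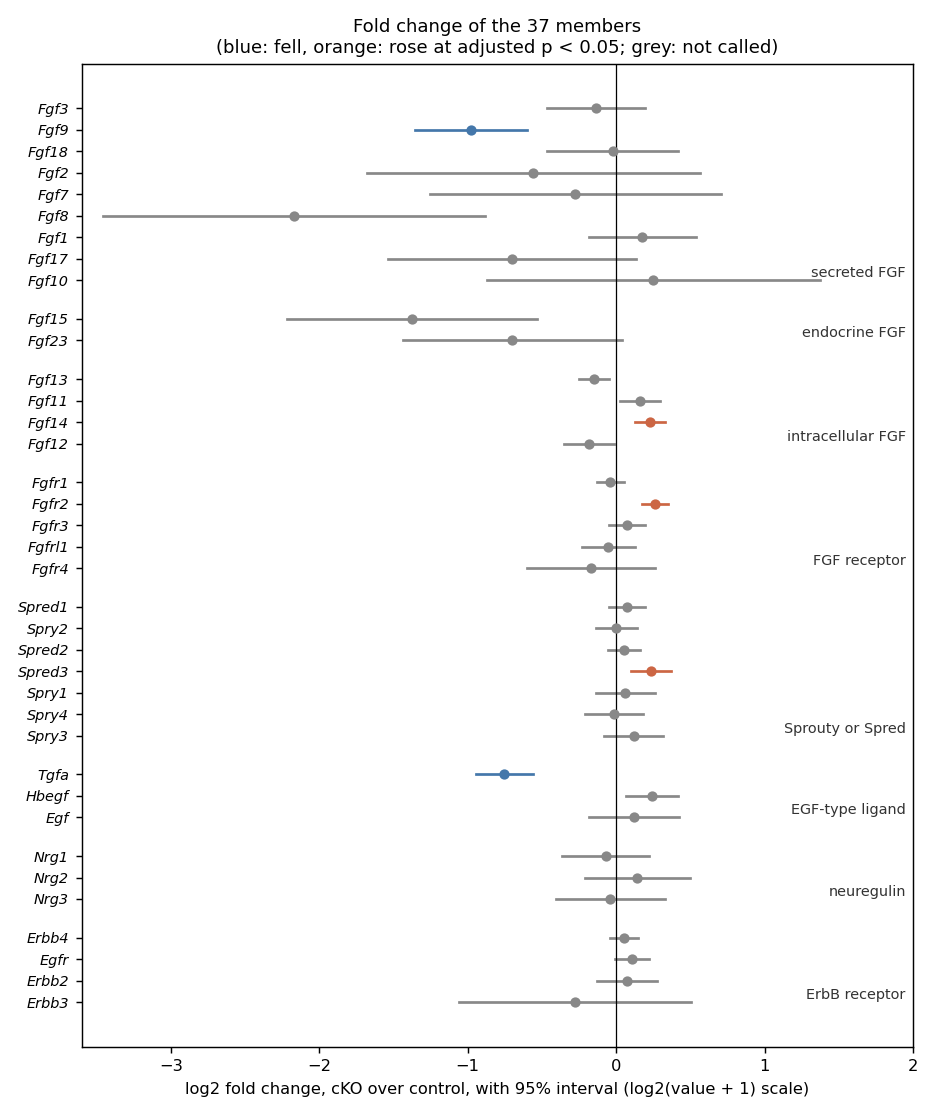
Log2 fold change of cKO over control (x axis, log2(value + 1) scale) with its 95% interval for each of the 37 members, grouped by role; blue members fell, orange members rose and grey members did not pass. The intervals of Fgfr2, Fgf14 and Spred3 lie to the right of 0 and those of Tgfa and Fgf9 to the left. Without a call, Hbegf and Fgf11 also lie to the right of 0, and Fgf8, Fgf12, Fgf13 and Fgf15 to the left. The intervals of all other receptors and inhibitors span 0. Erbb3, Fgf2, Fgf7, Fgf8, Fgf10, Fgf15, Fgf17 and Fgf23 have intervals that span more than 1 unit.

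Other genes of these pathways were taken from 4 lists, to be read against the 3.78% of all genes tested that fell and the 2.87% that rose. Of 31 tested genes of FGF signal transduction and co-receptors, 3 fell and 1 rose (median log2 fold change 0.00). An unadjusted p under 0.05 in the limma test was found for 7 of the 31, against 2931 of 15698 over all genes tested. Map2k1, which encodes the kinase MEK1 above ERK, was at 1481, 1253, 1400 and 1364 in the controls and at 944, 925, 901 and 873 in the cKO. The groups were far apart, at -0.59 ± 0.05 on the log2 scale (limma, adjusted p = 3.89e-05). Its paralog Map2k2 (-0.03 ± 0.05) and the kinase gene Mapk3 (-0.04 ± 0.06) did not pass. Fgfbp3, a carrier protein of secreted FGFs, fell by 0.46 ± 0.06 on the log2 scale (adjusted p = 0.000948). The transmembrane partners of FGF receptors went in opposite directions, Flrt2 at -0.30 ± 0.05 (adjusted p = 0.00583) and Flrt1 at 0.31 ± 0.07 (adjusted p = 0.0186). Without control replicate 3 and cKO replicate 4 the adjusted p was 0.0654 for Flrt2 and 0.108 for Flrt1, and Flrt1 was also lost without cKO replicate 4 alone (0.0648).

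Of 17 tested ERK response and feedback genes, 1 fell and 1 rose (median 0.05). At an unadjusted p under 0.05 in the limma test there were 9, against 2931 of 15698 over all genes tested, and this share was not tested. The authors' deposited table called 2 genes of the list lower and 1 higher. Fos (-0.63 ± 0.22, adjusted p = 0.14) and Sh2b3 (0.21 ± 0.07, adjusted p = 0.134) did not pass. Egr1, an immediate early gene that neuronal activity also induces, went from 502.5 ± 34.1 to 274 ± 47.2 (-0.89 ± 0.11, adjusted p = 0.000364). Phlda1 rose by 0.42 ± 0.09 (adjusted p = 0.0177), a call lost without control replicate 4 (0.0512) and without both libraries lowest in pallial markers (0.0728). The FGF-responsive ETS factor genes Etv1, Etv4 and Etv5 did not pass, at 0.10 ± 0.04, -0.30 ± 0.10 and -0.08 ± 0.05. Neither did the ERK phosphatase gene Dusp6 (-0.17 ± 0.07, adjusted p = 0.209) nor the FGF antagonist gene Il17rd (0.22 ± 0.07, adjusted p = 0.102). Among the genes of this list that did not pass, the groups did not overlap for Etv4 and Dusp6, lower in the cKO, and for Il17rd and Sh2b3, higher. Such genes made up 12.7% of all genes tested, and this share was not tested.

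Of 17 tested genes of other ErbB ligands, ligand processing and ErbB feedback, none passed the limma test (median 0.03). An unadjusted p under 0.05 was found for 4 of the 17, against 2931 of 15698 over all genes tested. The authors' deposited table called 2 genes of the list, 1 higher and 1 lower. The sheddase gene Adam10 was at 0.09 ± 0.04, with a 95% interval from 0.005 to 0.18 (adjusted p = 0.234). Adam17, whose product releases TGFA from the membrane, was at 0.06 ± 0.05 and the EGFR inhibitor gene Errfi1 at -0.02 ± 0.06. Rhbdf2, from values between 6 and 32, was at 0.88 ± 0.32 (adjusted p = 0.149), and Socs4 was at 0.25 ± 0.10 (adjusted p = 0.204). Areg, another EGFR ligand, was at 6, 7, 2 and 6 in the controls and 1, 0, 2 and 1 in the cKO, too low to place (adjusted p = 0.07). It passed in the RPKM columns (0.038), without control replicate 3 (0.0371) and in the authors' deposited table (0.00213).

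Of 32 genes of heparan sulfate proteoglycans and their enzymes, which shape FGF binding, 4 fell and 1 rose (median -0.01). The shares over all genes tested were 3.78% and 2.87%. An unadjusted p under 0.05 in the limma test was found for 12 of the 32, against 2931 of 15698 over all genes tested. These shares were not tested. Hs3st5, a sulfotransferase gene, was at 279, 232, 264 and 267 in the controls and at 143, 120, 150 and 133 in the cKO (-0.93 ± 0.09, adjusted p = 9.57e-05). Another, Hs6st3, was at -0.60 ± 0.11 (adjusted p = 0.00622). The glypican genes Gpc3 (-0.87 ± 0.15, adjusted p = 0.00429) and Gpc6 (-0.34 ± 0.08, adjusted p = 0.0275) also fell, and the chain polymerase gene Ext1 rose by 0.17 ± 0.04 (adjusted p = 0.0269). The calls of Gpc6 and Ext1 were lost in several fits that left out 1 library, with adjusted p up to 0.0813 for Gpc6 and 0.087 for Ext1. No gene of this list rose with 1 residual degree of freedom fewer, without both libraries lowest in pallial markers or in the authors' deposited table, so the Ext1 call was lost there too.

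**Figure D5:**
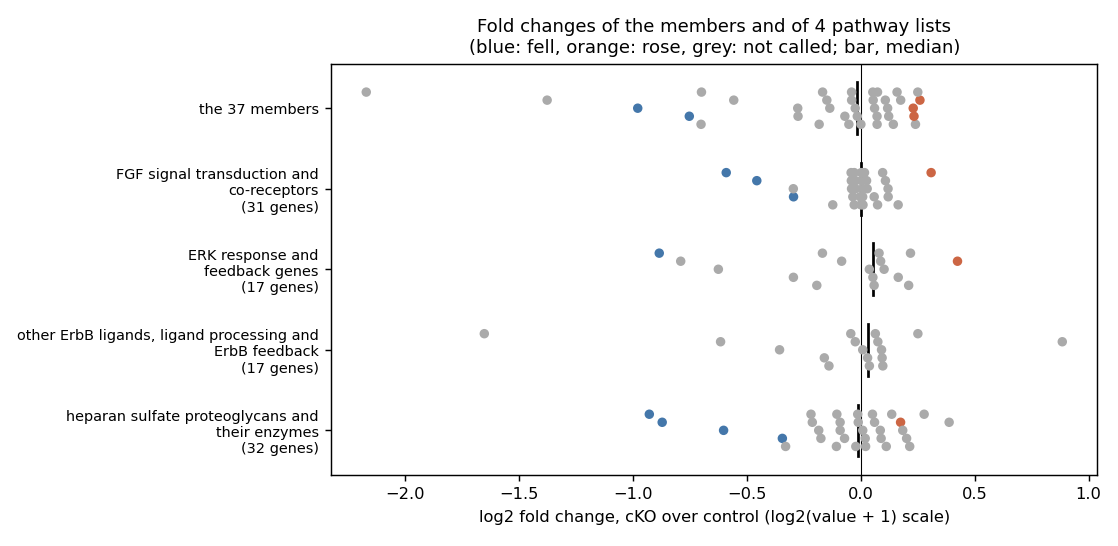
Log2 fold change of cKO over control (x axis) for each gene of the 37 members and of the 4 pathway lists (rows); each point is a gene, black bars are medians, blue points fell, orange points rose and grey points did not pass. The medians lie between -0.02 and 0.05 in all 5 rows, and the called genes of the heparan sulfate row lie mostly to the left.

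Some markers of other cells moved with genotype beside these members, and in bulk RNA fewer cells of a type and less RNA per cell cannot be told apart. The marker counts stand against 2.87% of all genes tested that rose and 3.78% that fell. Of 12 microglia markers, 10 rose, and their summed RPKM ran from 36.2 to 43 in the controls and from 59.5 to 77.7 in the cKO. Of 8 cholinergic neuron markers, 7 fell (9.58 to 15.5 against 3.66 to 7.48), and Chat was at 0 in at least 1 library. Of 11 markers of MGE interneurons (cells born in the medial ganglionic eminence), 3 were called lower and 1 higher (191 to 227 against 140 to 180). Of 10 markers of astrocytes and radial glia, which carry Fgfr2 and Fgfr3, 1 rose, Sox9 at 0.38 ± 0.07, a call lost without both libraries lowest in pallial markers (adjusted p = 0.0543). The median of the list was -0.07, and the sums overlapped (1564 to 1693 against 1347 to 1605). Of its other markers, Aldoc (-0.18 ± 0.06), Slc1a2 (-0.14 ± 0.05) and Slc1a3 (-0.14 ± 0.04) had an unadjusted p under 0.05 and did not pass the limma test. With the replicate block Slc1a2 (adjusted p = 0.0363) and Slc1a3 (0.0327) passed as lower. The part of these cells in the changes of Tgfa, Fgf9, Fgfr2, Fgf14 and Spred3 was not tested.

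Among the remaining lists, 1 of 12 pallial markers rose, and none of 9 oligodendrocyte lineage, 15 vascular or 7 choroid plexus markers passed the limma test. At an unadjusted p under 0.05 there were 3, 1 and 2 of these, against 2931 of 15698 over all genes tested. The authors' deposited table called 2 of the choroid plexus markers. The summed RPKM of the oligodendrocyte lineage ran from 52.2 to 59.3 in the controls and from 50.5 to 51.6 in the cKO. The pallial sum was lowest in control replicate 3 (20.4 RPKM) and cKO replicate 4 (25.6), against 32.2 to 40.9 in the other 6 libraries. Control replicate 1 stood apart in choroid plexus markers, at 133 RPKM against 10.7 to 16.1 in the other 7. Without control replicate 1, Tgfa, Fgf9, Fgfr2 and Fgf14 kept their calls and Spred3 did not (adjusted p = 0.104). Without both libraries lowest in pallial markers, Tgfa, Fgf9 and Fgfr2 kept theirs, Fgf15 gained one, and those of Fgf14 and Spred3 were lost.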

How the data were processed

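Poly(A) RNA of 8 LGE samples (4 control, 4 cKO) was sequenced as single reads of 85 bp from a directional library, per the labels' protocols. The submitters' processing notes name STAR, featureCounts, edgeR and mm10. No version, annotation or counting option, strand included, is stated. What the deposited file presents as raw is a score, whole numbers but no read counts. Upper quartiles lay between 1624 and 1635. For genes with a mean above 1000, log values were taken as deviations from the gene's mean over all 8 libraries. The smallest singular value of these deviations was 0.000241, against 0.0433 for the next, as when 1 factor has been removed. The authors' RPKM columns equal these scores per length and library sum. Also used, as an alternative, were the log2 fold changes and p-values in the authors' deposited table, whose sign is cKO over control.

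A gene was kept when 4 libraries or more had a value of 1 or above (15698 kept, 7 left out). Values were compared as log2(value + 1) with limma 3.58.1 (mean trend, no block, 8 libraries) in R 4.3.3, with Benjamini-Hochberg adjustment. No count model was fitted. The fit was tested on simulated data in which the leading direction of the within-group deviations had been removed. There, calls at an adjusted p under 0.05 were false several times more often than that threshold states. With 1 residual degree of freedom fewer they were less so, but still above it. How the authors removed a factor is not stated, and the number of changed genes was set by hand, so the share of false calls in these data is not known. The rule named the members that passed with 8 values each, all receptors and inhibitors, the most abundant ligands, members whose call changed, and list genes that passed or had the smallest p. Fgf2, Fgf7, Map2k2, Mapk3, Etv1, Etv5, Dusp6, Adam17, Errfi1 and Ccnd1 were named outside it, after their values were seen. Members and lists were chosen with earlier results of these data known. Coordinates and start sites are from RefSeq (GRCm38.p6) and strands from GENCODE. Alternatives varied the pseudocount (0.5, 10), the filter (none, 50), the scaling, the columns, the residual degrees of freedom, the replicate block and the libraries used.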

Additional observations from a re-analysis of the deposited data

How the results depend on the processing

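Over 19 alternatives, the members called numbered 4 to 6, against 5 as reported, and Tgfa, Fgf9 and Fgfr2 were called under each. The calls over all genes, 1045 as reported, numbered 658 to 959 when 1 library was left out (658 without control replicate 4), 608 without both libraries lowest in pallial markers and 749 with 1 residual degree of freedom fewer. The cause was not tested, though fewer libraries and fewer degrees of freedom themselves lower such counts. Same-numbered libraries did not pair (correlations of 0.23, -0.03, -0.11 and -0.53 over 11723 genes). With the replicate block, 1199 genes and 6 members were called, the sixth being Fgf8, and no other member's call changed.

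Signs turned only for members that were not called. Erbb3 was at 0.13 in the authors' deposited table. Spry2 was at -0.0052 with median-of-ratios scaling, -0.0044 with trimmed-mean scaling and -0.0077 in the RPKM columns. Without both libraries lowest in pallial markers, Spry4 was at 0.0807, Nrg2 at -0.0371 and Fgf18 at 0.12. Over the fits that left out 1 library, the log2 fold change ran from -0.0911 to 0.0155 for Fgfrl1, -0.0351 to 0.0435 for Spry2, -0.0534 to 0.0398 for Spry4, -0.18 to 0.0282 for Nrg1, -0.0109 to 0.24 for Nrg2, -0.13 to 0.11 for Nrg3, -0.19 to 0.0769 for Fgf18, -0.85 to 0.0526 for Fgf2, -0.55 to 0.13 for Fgf7 and -0.16 to 0.56 for Fgf10. The filter at 50 left 26 members, so the other 11 have no value there. Read counts and depth cannot be recovered, so no counting error is given for the low FGFs.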
